A study of Mus musculus with 8 samples.

Results

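The cells described here are the CD4 regulatory T cells (Tregs) of unstimulated mouse splenic T cells. They were chosen as all cells that the authors' annotation placed in the CD4 class and in a Treg cluster, and they numbered 327 of 12846 annotated cells. T cells purified from spleen were profiled by 10x Genomics 3′ single-cell RNA-seq in 8 libraries, 2 for each combination of genotype and culture condition. SDHA-KO mice carried a floxed Sdha allele on both chromosomes (Sdha fl/fl) together with CD4-Cre, and the records describe the other genotype as WT with no allele named. Mice in the study were 8 to 12 weeks old. Unstimulated cells received no antibody, and no culture time is given for them. Stimulated cells were kept for 48 hours with antibodies to CD3 (5 μg/mL) and CD28 (2.5 μg/mL). All 327 Tregs came from the 4 unstimulated libraries, and no Treg was annotated after stimulation. Sdha encodes the catalytic subunit of succinate dehydrogenase, which is complex II of the electron transport chain and an enzyme of the TCA cycle. CD4-Cre acts in thymocytes before CD4 and CD8 cells separate, so that the deletion is not specific to Tregs, and the naive and effector memory cells used for comparison carried the same alleles. Nothing in the sample records says that the numbered libraries of a group came from different mice, and p-values therefore measure only the spread between these samples.

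Tregs restrain other T cells and maintain self-tolerance. Their identity depends on the transcription factor Foxp3, and their survival on interleukin 2 (IL-2), of which they produce little themselves and which they capture with a high-affinity receptor whose alpha chain is Il2ra (CD25). Thymus-derived Tregs typically express the transcription factor Ikzf2 (Helios) and the surface protein Nrp1, while Ctla4 removes costimulatory ligands from antigen-presenting cells. Resting Tregs recirculate through lymphoid tissue, whereas effector Tregs express genes such as Klrg1 and enter other tissues.

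The WT libraries held 92 and 75 Tregs and the SDHA-KO libraries 73 and 87. Tregs made up 9.86% of the CD4 cells in WT replicate 1 (95% exact binomial interval, 8.02% to 11.96%) and 7.89% in WT replicate 2 (6.25% to 9.79%). The share was 6.54% in SDHA-KO replicate 1 (5.16% to 8.15%) and 6.62% in SDHA-KO replicate 2 (5.33% to 8.10%). Both SDHA-KO shares lay below both WT shares, with a mean of 6.58% ± 0.0529 (SD, n = 2) against 8.87% ± 1.40 (SD, n = 2), but the 2-sided exact permutation test gave p = 0.333, the smallest value that 2 against 2 libraries allow. As a share of all unstimulated T cells the means were 5.14% and 5.78%, and the groups overlapped. The intervals cover counting error only.

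Summed Treg libraries held from 529470 to 760146 UMIs, where a UMI (unique molecular identifier) marks 1 captured mRNA molecule. The median Treg had 6781.5 and 6671 UMIs in the WT libraries and 8311 and 8098 in the SDHA-KO libraries, and both SDHA-KO medians were the higher ones. Of the barcodes, 3 were shared between unstimulated libraries, and 0 of these belonged to a Treg. SDHA-KO replicate 1 stood apart in B cell transcripts. Summed over 15 B cell markers, its Tregs held 1301 CPM (UMIs scaled to a total of 1000000 over the same cells), against 246 and 412 in the WT libraries and 116 in SDHA-KO replicate 2, and 5 of its 73 Tregs held more than 3 UMIs of Cd79a, Cd79b, Igkc, and Ms4a1. Without those 5 B cell-positive cells the count of genes called between genotypes was 59. Where leaving them out changed the call of a gene described below or moved its log2 fold change by more than 0.2, that is given as well. CD8 and gamma-delta T cell markers summed to between 88.1 and 211 CPM, and NK cell markers to between 7.55 and 14.7.

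To describe the annotated cells, the 4 markers Foxp3, Il2ra, Ikzf2, and Ctla4 were measured in Tregs and in the other CD4 subsets. Foxp3 (chrX:7573644-7595245, mm10, plus strand) was at 150 and 189 CPM in WT Tregs, compared with 195 and 246 CPM in SDHA-KO Tregs. Its mean was 2.28 CPM in the 3665 naive CD4 cells and 11.1 CPM in the 323 effector memory (Tem) CD4 cells of the same libraries. Every Treg library was above every naive and Tem library. The Tem class differed between genotypes in a gamma-delta T cell marker, Trdc, at 3.10 and 0 CPM in WT Tem cells and 172 and 196 CPM in SDHA-KO Tem cells, with a Trdc UMI in 1.16%, 0%, 46.3%, and 41.8% of cells, so Tem values of the 2 genotypes come from classes of different makeup. Ikzf2 was at 1353 to 1508 CPM in the Treg libraries, with means of 12.3 CPM in naive cells and 438 CPM in Tem cells, and was the most abundant of the 4 markers in Tregs. UMIs of at least 2 of the 4 markers were detected in 95.7% of Tregs, in 2.05% of naive cells, and in 36.2% of Tem cells. Among the 327 Tregs, 1 cell held UMIs of no marker and 13 of a single marker. The authors identified Treg clusters by genes that included Foxp3, so its level in Tregs follows from the label and is no support for it. Il2ra, Ikzf2, and Ctla4 were high in the same cells, while Tem cells shared Ikzf2 and Ctla4 with Tregs. Because the clusters were drawn from these same transcripts, differences between Tregs and other subsets are descriptions and were not tested.

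**Figure D1:**
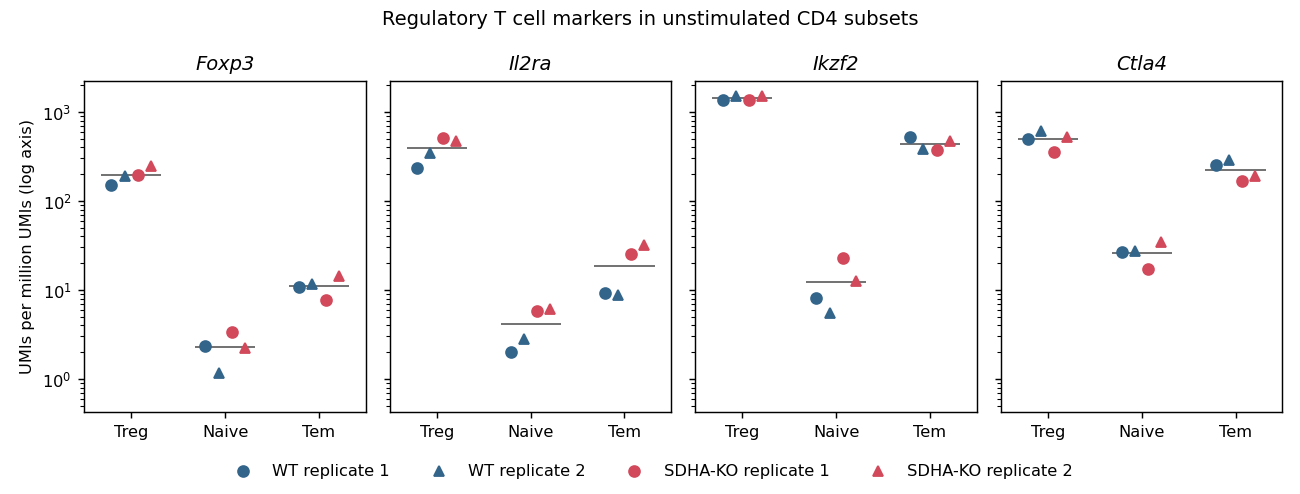
CPM (log axis) of the 4 Treg markers in Treg, naive, and Tem CD4 cells, with 1 point per unstimulated library and a grey line at the mean of 4 libraries. Foxp3 averaged 195 CPM in Tregs against 2.28 in naive and 11.1 in Tem cells, and Il2ra in Tregs was higher in both SDHA-KO libraries (515 and 466) than in both WT libraries (237 and 344).

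Foxp3 UMIs were concentrated in the annotated Tregs. Of 621 Foxp3 UMIs in unstimulated CD4 cells, 517 (83.3%) lay in Tregs. Of the 278 CD4 cells with a Foxp3 UMI, 213 were annotated as Treg, 48 as naive, and 17 as Tem. In 15 of those 48 naive cells and in 16 of those 17 Tem cells, at least 2 of the other markers were detected as well. Foxp3 was nevertheless missed in many Tregs. It was detected in 55.4% and 61.3% of WT Tregs and in 68.5% and 75.9% of SDHA-KO Tregs. After each cell was thinned to 3000 UMIs, which left out 1 Treg, the shares were 34.1% and 38.7% in WT and 41.1% and 49.4% in SDHA-KO. In naive CD4 cells the unthinned share was 0.627% to 1.72% at median depths of 7102 to 8564.5 UMIs. Naive CD8 cells, which should lack Foxp3, had shares of 0% to 0.987% at 8502 to 10271 UMIs, and after thinning the share was 0.617% to 0.821% in naive CD4 cells, compared with 0% in 3 libraries and 0.660% in the fourth for naive CD8 cells.

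Compared with naive CD4 cells, Tregs differed in a limited set of genes. Of 2822 genes with at least 50 CPM in the higher subset, 126 (4.46%) were at least 2-fold higher in Tregs in each of the 4 libraries and 30 (1.06%) were at least 2-fold lower, and the median log2 ratio was 0.14. The largest ratio was that of Lrrc32 (GARP), which anchors latent TGF-β on the Treg surface. It was at 41.8, 64.2, 57.3, and 46.0 CPM in the Treg libraries and at a mean of 0.275 CPM in naive cells, a log2 ratio of 7.41. Other genes among the 15 with the largest ratios were Frmd5 (7.10), Myo1e (6.80), Ikzf2 (6.75), the activation marker Cd83 (6.52), Il2ra (6.44), S100a4 (6.41), Foxp3 (6.39), Nrp1 (5.93), S100a6 (5.37), Il2rb (5.31), Mctp1 (5.23), Hdac9 (5.21), Tnfrsf4 (5.01), and Tnfrsf9 (4.85). Of these 15 genes, 13 had a higher mean in Tregs than in Tem cells as well. The exceptions were S100a4 and S100a6, calcium-binding proteins of effector cells, which averaged 84.0 and 102 CPM in Tregs but 1558 and 1473 CPM in Tem cells.

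**Figure D2:**
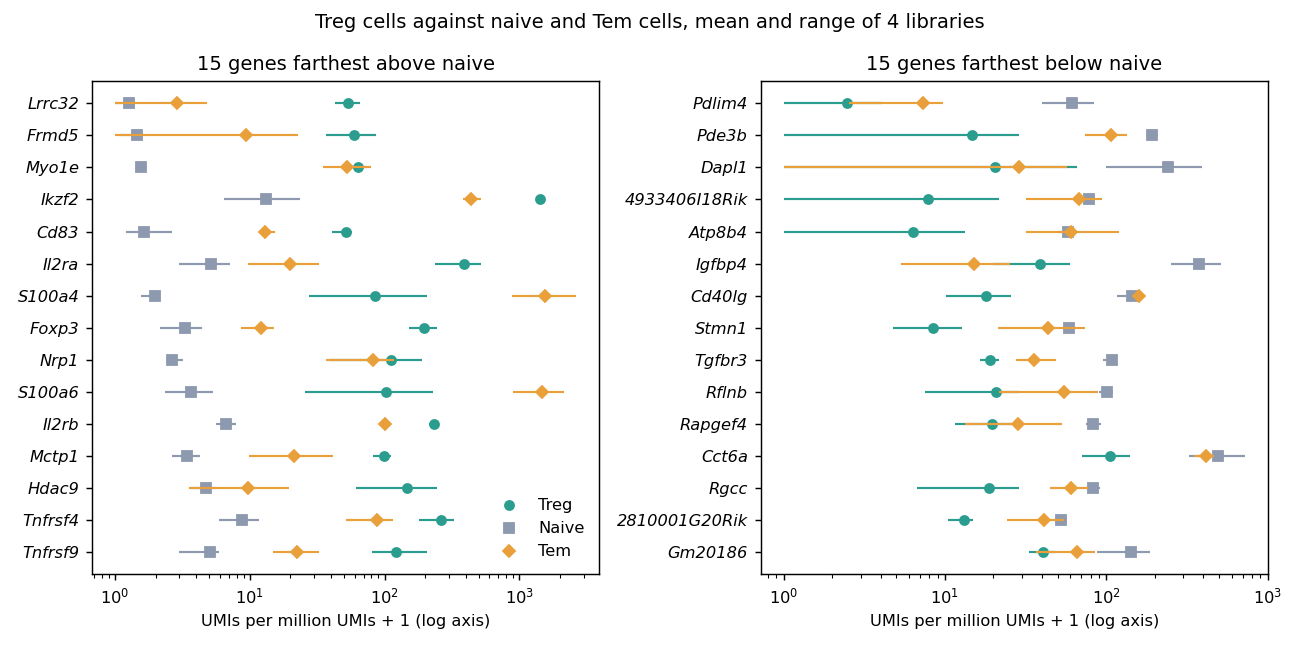
Mean (symbol) and range (line) over 4 libraries of CPM + 1 (log axis) in Treg, naive, and Tem CD4 cells, for the 15 genes farthest above and the 15 farthest below naive cells in Tregs. S100a4 and S100a6 lay above naive cells in Tregs but far below Tem cells, and Igfbp4 averaged 38.0 CPM in Tregs against 376 in naive cells.

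The genes lower in Tregs were led by Pdlim4, at 1.47 CPM in Tregs and 60.3 CPM in naive cells. Pde3b, a phosphodiesterase that degrades cAMP, was at 27.8, 0, 17.6, and 9.21 CPM in Tregs against a mean of 191 CPM in naive cells, a log2 ratio of −3.76. Cd40lg, the ligand by which helper T cells activate B cells, averaged 16.9 CPM in Tregs, 143 in naive cells, and 158 in Tem cells. Igfbp4 and Dapl1, which mark naive T cells, had log2 ratios of −3.33 and −3.48. The other genes among the 15 with the lowest ratios were 4933406I18Rik, Atp8b4, Stmn1, Tgfbr3, Rflnb, Rapgef4, Cct6a, Rgcc, 2810001G20Rik, and Gm20186, with log2 ratios between −3.40 and −1.74. Against Tem cells, 55 genes were at least 2-fold higher in Tregs and 84 lower in each library, of 3184 considered. Of the 126 genes higher than in naive cells, 33 were higher than in Tem cells as well.

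Genes were then grouped by role, beginning with the receptors. Of 21 Treg surface receptors averaging 50 CPM or more in Tregs or in naive cells, 15 were at least 2-fold higher than in naive cells in all 4 libraries. The median log2 ratio over the list was 2.61. The share over all genes considered, for this and the lists below, was 4.46% higher. A member that reached 50 CPM only in Tregs could be counted only as higher, so these counts are descriptions. The 15 included Ctla4, Tnfrsf18 (GITR), Tnfrsf4 (OX40), Tnfrsf9 (4-1BB), Gpr83, Izumo1r (folate receptor 4), and Nt5e (CD73), an enzyme that makes adenosine. Of 11 IL-2 and STAT5 pathway genes, 5 were higher. These were the receptor chains Il2ra and Il2rb, the feedback inhibitors Socs1 and Cish, and the kinase Pim1. Of 23 transcription factors, 7 were higher, namely Foxp3, its partners Ikzf2 and Ikzf4, and Ikzf3, Gata3, Maf, and Rel. None of the 23 was lower by this rule, although Lef1, which maintains naive cells, was at 459, 378, 360, and 378 CPM in Tregs and at 918, 980.3, 709.8, and 855 CPM in naive cells.

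Of 19 genes of the naive and central program, 4 were lower than in naive cells by the same rule (Ccr7, Igfbp4, Dapl1, and Actn1), against 1.06% of all genes considered. At a depth of 3000 UMIs, Ccr7, a chemokine receptor that guides lymph node entry, was detected in 16.1% to 25.3% of Tregs, against 47.6% to 48.4% of naive cells. Of 13 effector Treg genes, 6 were higher than in naive cells (Tnfrsf9, Maf, Itgb1, S100a4, S100a6, and Ahnak), against 4.46% of all genes considered. Among suppressive cytokines, Il10 had 0, 1.89, 0, and 0 CPM in the 4 libraries and Ebi3, a subunit of IL-35, had 4.64 to 13.2 CPM, whereas Tgfb1 was higher, at 85.1 to 129 CPM. The proliferation marker Mki67 was at 0, 1.89, 0, and 9.21 CPM.

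SDHA-KO was then compared with WT within Tregs, to ask which transcripts differed between the genotypes in this subset. SDHA-KO mice also carried CD4-Cre, and no library is described as coming from mice with CD4-Cre alone. Effects of Sdha loss and of Cre therefore cannot be told apart. The targeted gene was lower. Sdha (chr13:74322254-74350280, mm10, minus strand) was at 91.3 and 96.3 CPM in WT Tregs, compared with 42.6 and 61.8 CPM in SDHA-KO Tregs. The groups did not overlap, as for 39.2% of all genes tested, and the log2 fold change was −0.83 ± 0.24 (SE). With an adjusted p of 0.128 by the quasi-likelihood test of edgeR, it was not called in Tregs, which held 186 Sdha UMIs in all. In the larger naive subset of the same libraries Sdha fell by 1.18 on the log2 scale (adjusted p = 8.94e-08). In Tem cells Sdha was at 97.6 and 79.8 CPM in WT, compared with 82.8 and 78.7 CPM in SDHA-KO, where Trdc differed as given above. The floxed exons are not named in the sources used here, and 3′ reads outside them would still count, so the remaining UMIs do not give the share of undeleted cells.

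Of 6659 genes tested in Tregs, 47 (0.706%) were called at an adjusted p under 0.05, 17 (0.255%) higher and 30 (0.451%) lower in SDHA-KO. An unadjusted p under 0.05 was reached by 675 genes (10.1%). The median log2 fold change over all genes was 0.01. Of the 47 genes, 25 were also called in naive CD4 cells, 24 of them in the same direction, where 386 of 10803 genes (3.57%) were called, 1.12% higher and 2.45% lower. The naive cells shared their libraries with the Tregs, so the overlap is not independent. The number of calls depended on single libraries. Without SDHA-KO replicate 2, 9 genes were called, and of the 47 the 6 that kept their call were Malat1, mt-Co1, mt-Co2, mt-Cytb, mt-Nd2, and mt-Nd4. Without SDHA-KO replicate 1, 94 genes were called, 37 of them among the 47. Adjusted p values below are those of the edgeR test over all genes tested.

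**Figure D3:**
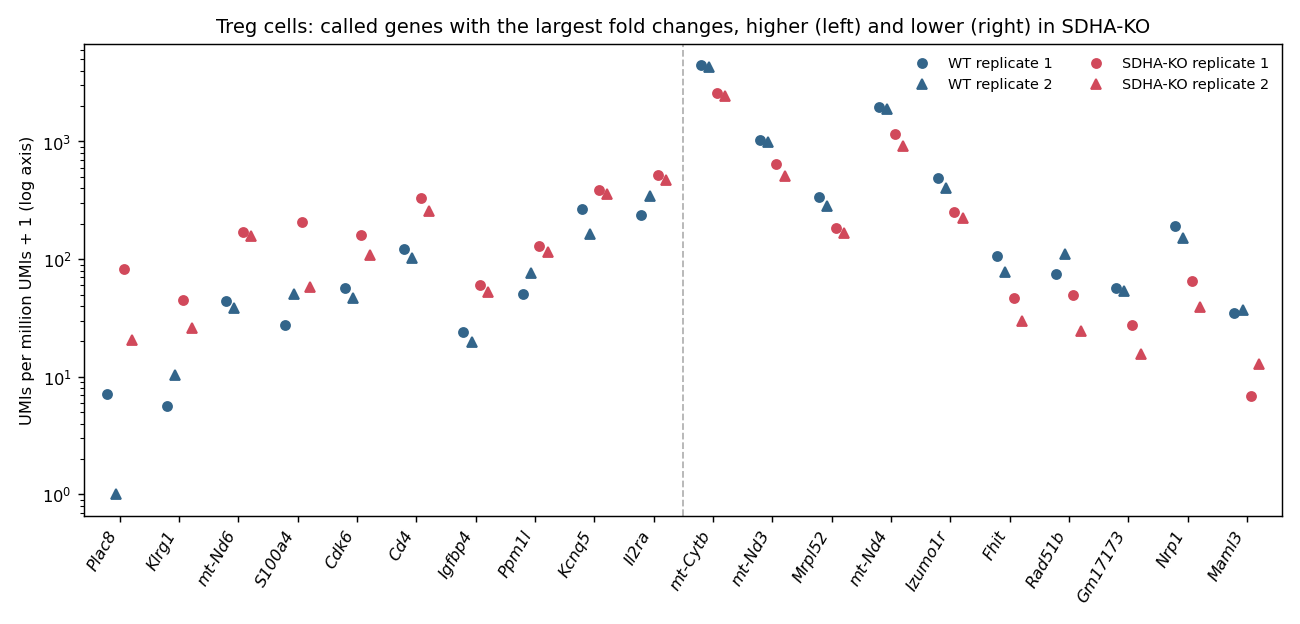
CPM + 1 (log axis) in the Tregs of each library for the 10 called genes with the largest fold changes in each direction, among genes of at least 20 CPM whose genotypes did not overlap. SDHA-KO replicate 1 was far above SDHA-KO replicate 2 for Plac8 (80.8 and 19.7 CPM) and S100a4 (204 and 56.6 CPM), whereas the SDHA-KO replicates were close to each other for mt-Nd6, Cd4, and Izumo1r.

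Among the genes that define Tregs, Il2ra was called and Foxp3, Ikzf2, and Ctla4 were not. Il2ra (chr2:11642807-11693193, plus strand) was at 237 and 344 CPM in WT, compared with 515 and 466 CPM in SDHA-KO. Both SDHA-KO libraries were higher, by 0.76 ± 0.14 (SE) on the log2 scale (edgeR adjusted p = 0.00676). The rise was not particular to Tregs. In naive cells Il2ra was at 2.01 and 2.81 CPM in WT, compared with 5.84 and 6.09 CPM in SDHA-KO. In Tem cells, where Trdc differed as given above, it was at 9.29 and 8.70 CPM in WT, compared with 25.5 and 31.7 CPM in SDHA-KO. At 3000 UMIs per cell, Il2ra was detected in 39.6% and 49.3% of WT Tregs and in 58.9% and 66.7% of SDHA-KO Tregs. The difference remained at 0.84 without the B cell-positive cells but lost its call when only Foxp3-positive Tregs were kept (0.67, adjusted p = 0.144), without WT replicate 1 (0.50, adjusted p = 0.228), without SDHA-KO replicate 2 (0.84, adjusted p = 0.539), and when all sums were thinned to the smallest total (0.80, adjusted p = 0.198). Foxp3 had a log2 fold change of 0.39 ± 0.17 (adjusted p = 0.437), Ctla4 of −0.32 ± 0.14 (adjusted p = 0.446), and Ikzf2 of 0.01 ± 0.09 (adjusted p = 0.982). Ctla4 and Ikzf2 overlapped between genotypes, at 354 to 604 CPM and at 1353 to 1508 CPM. The sign of the Ikzf2 value changed with the processing.

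Several surface receptors moved in opposite directions. Of 26 surface receptors tested, 2 rose (Il2ra and Klrg1) and 2 fell (Izumo1r and Nrp1), with a median log2 fold change of −0.01. Over all genes tested, 0.255% were called higher and 0.451% lower. Nrp1 (chr8:128358604-128503363, plus strand), a semaphorin coreceptor that marks thymus-derived Tregs, was at 189 and 149 CPM in WT, compared with 64.6 and 38.2 CPM in SDHA-KO. The SDHA-KO libraries were well below the WT libraries, with a log2 fold change of −1.74 ± 0.24 (edgeR adjusted p = 7.85e-05). Nrp1 was lower in SDHA-KO Tem cells as well, at 115 and 116 CPM in WT, compared with 56.0 and 36.1 CPM in SDHA-KO. Trdc differed in that class as given above. At equal depth, Nrp1 was detected in 31.9% and 29.3% of WT Tregs and in 12.3% and 10.3% of SDHA-KO Tregs. Its call was lost without SDHA-KO replicate 2 (−1.40, adjusted p = 0.273).

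Izumo1r (chr9:14885814-14903949, minus strand), a folate receptor family protein of Tregs, fell from 490 and 402 CPM to 250 and 221 CPM. This was a log2 fold change of −0.93 ± 0.14 (edgeR adjusted p = 0.000271), which lost its call without SDHA-KO replicate 2 (−0.85, adjusted p = 0.309). The share of cells with an Izumo1r UMI at equal depth was 58.2% and 61.3% in WT and 35.6% and 37.9% in SDHA-KO, and naive cells changed in the same direction (−0.56, adjusted p = 0.00236). So did Tem cells, with shares of 44.7% and 36.7% in WT and 13.4% and 9.89% in SDHA-KO, although Trdc differed in that class as given above. Receptors of the TNF receptor family were not called. Tnfrsf9 was at 85.1, 79.3, 207, and 109 CPM in the order WT 1, WT 2, SDHA-KO 1, SDHA-KO 2 (log2 fold change 0.92, adjusted p = 0.0918). Tnfrsf4 was at 237, 179, 325, and 296 CPM in the same order (0.56, adjusted p = 0.0962).

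Cd4 itself, the coreceptor that binds MHC class II, was higher in SDHA-KO Tregs. It was at 121 and 102 CPM in WT, compared with 330 and 255 CPM in SDHA-KO, a log2 fold change of 1.38 ± 0.18 (edgeR adjusted p = 3.63e-05). The genotypes were far apart, and the share of Tregs with a Cd4 UMI at equal depth was 20.9% and 25.3% in WT and 54.8% and 47.1% in SDHA-KO. In naive cells Cd4 rose by 2.02 on the log2 scale. The authors placed clusters in the CD4 class by their ratio of Cd4 to Cd8a, so Cd4 was among the values by which these cells were chosen. How far that choice shaped the difference was not tested. The call in Tregs was lost without SDHA-KO replicate 2 (1.55, adjusted p = 0.0644). Other called genes that were higher included Cdk6, a cyclin-dependent kinase of the G1 phase, at 55.7, 45.3, 160, and 108 CPM (1.38 ± 0.25, adjusted p = 0.00365). Its call was lost without SDHA-KO replicate 2 (1.64) and in Foxp3-positive Tregs (1.26). The potassium channel gene Kcnq5 was at 266, 162, 388, and 357 CPM (0.77 ± 0.16, adjusted p = 0.0207), but was not called without WT replicate 2 (0.47) and without SDHA-KO replicate 2 (0.83).

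Of 20 effector Treg genes tested, 3 rose (Klrg1, S100a4, and Vim) and 0 fell, against 0.255% and 0.451% of all genes tested. Of the 20, 12 had a positive and 8 a negative log2 fold change, and the median was 0.16. Summed over the list, the level was 2320 and 2842 CPM in WT and 3307 and 2472 CPM in SDHA-KO, so that the genotypes overlapped. Without the B cell-positive cells Itgb1, an integrin chain, was called lower (−1.05, adjusted p = 0.0225, compared with −0.94 and 0.0708 with them). Klrg1, a receptor of terminally differentiated effector cells, was at 4.64 and 9.44 CPM in WT, compared with 44.1 and 25.0 CPM in SDHA-KO (log2 fold change 2.29 ± 0.52, edgeR adjusted p = 0.0295). The 5 Tregs with the most Klrg1 held 85.7% of its UMIs in SDHA-KO and all of them in WT. S100a4 was at 26.3, 49.1, 204, and 56.6 CPM (1.79 ± 0.41, adjusted p = 0.0360), so that SDHA-KO replicate 2 was just above WT replicate 2. Without SDHA-KO replicate 1 the S100a4 difference was 0.61 and was not called (adjusted p = 0.530), and without SDHA-KO replicate 2 it was 2.46 (adjusted p = 0.0760). Without the B cell-positive cells S100a4 fell to 147 CPM in SDHA-KO replicate 1 and the difference was 1.42 (adjusted p = 0.0278). Klrg1 lost its call without the B cell-positive Tregs of SDHA-KO replicate 1 (1.84, adjusted p = 0.0998) and without WT replicate 1 (1.82), SDHA-KO replicate 1 (1.83), or SDHA-KO replicate 2 (2.65).

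Vim (vimentin), an intermediate filament protein, was spread over more cells. It was at 212 and 253 CPM in WT, compared with 383 and 342 CPM in SDHA-KO (0.64 ± 0.14, adjusted p = 0.0277), and at equal depth it was detected in 36.3% and 41.3% of WT and in 65.8% and 51.7% of SDHA-KO Tregs. Its call was lost without WT replicate 1 (0.51), SDHA-KO replicate 1 (0.55), or SDHA-KO replicate 2 (0.72). Plac8, at 6.19, 0, 80.8, and 19.7 CPM, had the largest positive value (3.78 ± 0.75, adjusted p = 0.00781). It fell to 31.3 CPM in SDHA-KO replicate 1 without the B cell-positive cells (2.82, adjusted p = 0.0284), and it was not called without SDHA-KO replicate 1 (2.48) or SDHA-KO replicate 2 (4.48). Whether the B cell transcripts in those Tregs account for part of the Plac8 and Klrg1 values was not tested beyond leaving the cells out. At least 2 of Klrg1, S100a4, and S100a6 were detected in 3 of 92 and 6 of 75 WT Tregs and in 10 of 73 and 4 of 87 SDHA-KO Tregs, so that the genotypes overlapped. At equal depth, 7 SDHA-KO Tregs held Klrg1 (6.85% of replicate 1 and 2.30% of replicate 2). Of these, 6 also held S100a4, 3 held Nrp1, and 0 held Izumo1r, compared with 4.58%, 9.80%, and 38.6% of the 153 SDHA-KO Tregs without Klrg1. These are cells pooled over both SDHA-KO libraries, with the B cell-positive cells kept, and not replicates.

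Of 33 transcription factors of Tregs tested, 0 were called between genotypes, against 0.706% of all genes tested, although Maf was called without the B cell-positive cells. Of the 33, 20 had a positive and 13 a negative log2 fold change, with a median of 0.09. The nearest to a call were Id2, an inhibitor of DNA-binding proteins that is high in effector cells, at 15.5, 17.0, 66.1, and 32.9 CPM (1.58, adjusted p = 0.0632), and Maf, at 101, 134, 72.0, and 50.0 CPM (−0.94, adjusted p = 0.0649). Without the B cell-positive cells Maf was at 57.6 CPM in SDHA-KO replicate 1 and was called lower (−1.12, adjusted p = 0.00699). Among naive and central genes, 1 of 19 was called, against 0.706% of all genes tested. This was Igfbp4, at 23.2 and 18.9 CPM in WT, compared with 58.7 and 51.3 CPM in SDHA-KO (1.36 ± 0.32, adjusted p = 0.0441). It lost its call in 12 alternative analyses, including each analysis without 1 library (1.23 to 1.52) and that without the B cell-positive cells (adjusted p = 0.0825). Within the IL-2 and STAT5 pathway, Il2ra was the 1 called gene of 15, and Cish and Pim1, targets of STAT5, had log2 fold changes of 0.76 (adjusted p = 0.278) and 0.46 (adjusted p = 0.151). Pim1 was called higher without the B cell-positive cells (0.52, adjusted p = 0.0487).

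Other genes that fell included Fhit (105, 77.4, 45.5, and 28.9 CPM, log2 fold change −1.32, or −1.65 without the B cell-positive cells), the Notch coactivator Maml3 (34.0, 35.9, 5.87, and 11.8 CPM, −1.94), and the noncoding Gm17173 (55.7, 52.9, 26.4, and 14.5 CPM, −1.43). Without SDHA-KO replicate 2 none of these was called (−1.03, −2.54, and −1.04), and neither without WT replicate 1 (−1.08, −1.99, and −1.39). Maml3 also lost its call without WT replicate 2 (−1.91) or SDHA-KO replicate 1 (−1.55). Mrpl52, a protein of the mitochondrial ribosome, fell from 336 and 283 CPM to 184 and 167 CPM (−0.83 ± 0.15, adjusted p = 0.00454), but was not called without WT replicate 1 (−0.70) or SDHA-KO replicate 2 (−0.77). Ppm1l, a protein phosphatase, rose by 0.97 at an adjusted p of 0.0497 and lost its call without WT replicate 1 (0.67), SDHA-KO replicate 1 (0.89), or SDHA-KO replicate 2 (1.05). The ribosomal protein genes Rps12, Rps27, and Rps29, the T cell receptor constant gene Trbc2, and Gm42418 were also called, with absolute log2 fold changes of at most 0.50. These genes have near-identical copies or overlap ribosomal RNA sequence, so their counts are uncertain.

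Of the gene groups examined, the mitochondrially encoded genes held the most calls in Tregs. Many of them are abundant, and abundant transcripts had smaller standard errors. Without the B cell-positive cells, mt-Atp6, at 8195 CPM in WT replicate 1, changed by −0.25 ± 0.05 (SE) and was called. The nuclear gene Sdhb, at 85.1 CPM in that library, changed by −0.25 ± 0.23 and was not called. Of the 13 mitochondrially encoded genes, 3 rose and 8 fell, against 0.255% and 0.451% of all genes tested, with a median log2 fold change of −0.36. Of those in complex I, mt-Nd4 was at 1959.8 and 1902 CPM in WT, compared with 1160.2 and 910.4 CPM in SDHA-KO (−0.91 ± 0.09, edgeR adjusted p = 1.63e-06). The complex I genes mt-Nd2 (−0.72), mt-Nd3 (−0.81), mt-Nd4l (−0.65), and mt-Nd5 (−0.59) also fell, and mt-Nd1 was not called (adjusted p = 0.993). The mt-Nd3 call was lost without SDHA-KO replicate 2 (−0.65), the mt-Nd5 call also without WT replicate 1 (−0.42 and −0.49), and the mt-Nd4l call whichever library was left out (−0.69 to −0.63). The single complex III gene, mt-Cytb (chrM:14145-15288, plus strand), fell from 4430 and 4268 CPM to 2558 and 2456 CPM (−0.80 ± 0.06, adjusted p = 2.79e-08) and was called in every alternative analysis in which it was tested.

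The complex IV genes split. mt-Co1 rose from 5321 and 5341 CPM to 8118 and 7314 CPM (0.53 ± 0.06, edgeR adjusted p = 3.07e-06) and mt-Co2 rose by 0.51, while mt-Co3 fell by 0.36. The mt-Co3 call was lost without SDHA-KO replicate 2 (−0.34). In complex V, mt-Atp6 fell by 0.25, a call that was lost without that library (−0.20) and without either WT library (−0.26 in both cases), and mt-Atp8 was not called (−0.27, adjusted p = 0.627). The largest rise was in mt-Nd6 (chrM:13552-14070, minus strand), the gene for a complex I subunit and the 1 protein-coding gene on the opposite strand of the mitochondrial genome. It was at 43.3 and 37.8 CPM in WT, compared with 170 and 155 CPM in SDHA-KO (1.99 ± 0.23, adjusted p = 5.70e-06), although the call narrowly failed without SDHA-KO replicate 2 (2.05, adjusted p = 0.0553). Naive cells showed 1 gene higher and 9 lower of the same 13, and none of the 13 was called for a difference in effect between Tregs and naive cells by the interaction test described below.

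**Figure D4:**
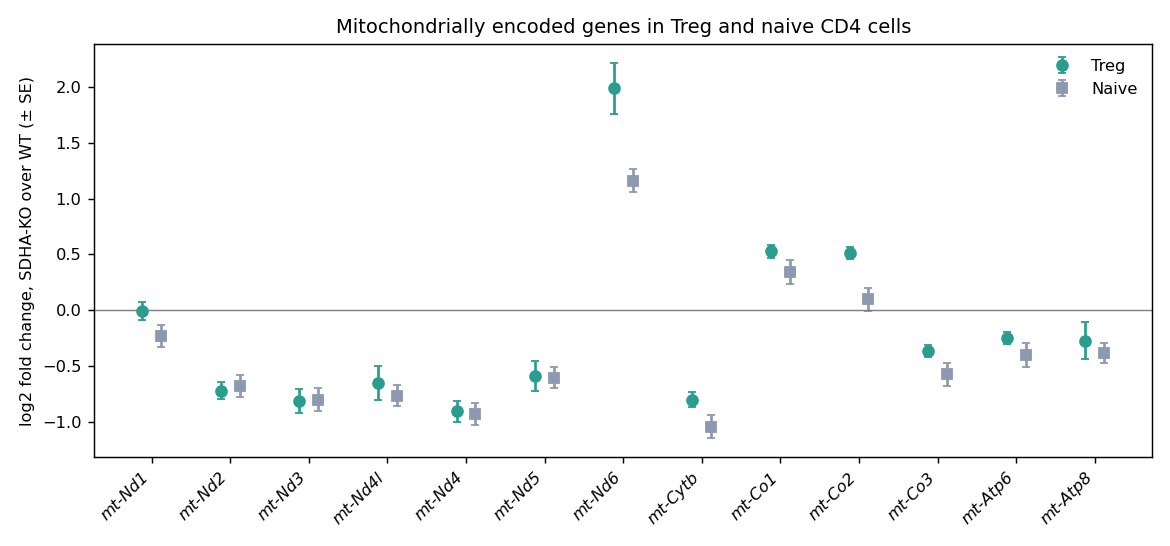
Log2 fold changes (SDHA-KO over WT, ± SE) of the 13 mitochondrially encoded genes in Treg and naive CD4 cells of the same 4 libraries. In Tregs mt-Nd6 rose by 1.99 and mt-Co1 and mt-Co2 by 0.53 and 0.51, whereas mt-Cytb fell by 0.80 and mt-Nd4 by 0.91.

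As a share of Treg UMIs, the mitochondrially encoded genes were slightly lower in both SDHA-KO libraries than in both WT libraries. The mean per cell was 3.94% and 3.93% in the WT libraries and 3.63% and 3.51% in the SDHA-KO libraries. The exact permutation test over libraries gave p = 0.333, the smallest value possible here. In naive cells the group means were 3.97% in WT and 3.34% in SDHA-KO. Nuclear genes of oxidative metabolism were not called. Over all genes tested only 0.706% were called, so 0 calls in lists of these sizes says little about these pathways. Of 77 nuclear genes of the electron transport chain and ATP synthase, 0 were called and 57 had a negative log2 fold change, with a median of −0.11 and 3 genes at an unadjusted p under 0.05. Of 18 TCA cycle genes, 0 were called (median −0.18), and of 8 succinate dehydrogenase subunit and assembly genes, 0 were called, with Sdhb at 85.1, 85.0, 72.0, and 73.7 CPM. Glycolytic genes (15 tested, median 0.13) and fatty acid oxidation genes (17 tested, median 0.05) held 0 calls each in Tregs. At an unadjusted p under 0.05 both of these lists had 0 genes, where 10.1% of all genes tested passed.

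Finally, the effect of SDHA-KO in Tregs was compared directly with that in naive CD4 cells by an interaction test with the library as a block. Of 10376 genes, 3 (0.0289%) were called, all with a lower value in Tregs, and 615 (5.93%) had an unadjusted p under 0.05. The first was Bcl2 (chr1:106538178-106714274, minus strand), an inhibitor of apoptosis. Its level was 282 and 289 CPM in WT naive cells and 644 and 552 CPM in SDHA-KO naive cells. In Tregs it was 657 and 612 CPM in WT and 607 and 499 CPM in SDHA-KO. WT Tregs thus held more Bcl2 than WT naive cells, and the SDHA-KO subsets were close to each other. The effects were 1.01 ± 0.10 in naive cells and −0.21 ± 0.12 in Tregs, a difference of −1.22 ± 0.13 (edgeR adjusted p = 4.57e-06). In Tem cells Bcl2 was at 86.7 and 76.9 CPM in WT, compared with 185 and 135 CPM in SDHA-KO, but Trdc moved with genotype in this class (3.10 and 0 CPM against 172 and 196 CPM), and its part in the Bcl2 values was not tested.

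Resf1, a regulator of retroelement silencing (chr6:149309414-149335663, plus strand), had the same pattern. It was at 84.1 and 72.1 CPM in WT naive cells, compared with 145 and 128 CPM in SDHA-KO naive cells, but at 218 and 234 CPM in WT Tregs, compared with 185 and 159 CPM in SDHA-KO Tregs. The difference between the effects was −1.15 ± 0.17 (edgeR adjusted p = 0.00233). Rad51b, a DNA repair gene (chr12:79297282-79814690, plus strand), was at 74.2 and 110 CPM in WT Tregs, compared with 48.5 and 23.7 CPM in SDHA-KO Tregs (−1.35 ± 0.29, adjusted p = 0.0232). That call in Tregs was lost without WT replicate 2 (−1.07) or SDHA-KO replicate 2 (−0.91), and the value was −1.73 without the B cell-positive cells. The difference from its effect in naive cells was −2.84 (adjusted p = 0.0455), with at most 7.77 CPM in any naive library. The Rad51b call was lost without WT replicate 2 (−1.88, adjusted p = 0.168), under another normalization (adjusted p = 0.110), and when naive sums were thinned to Treg depth (adjusted p = 0.671). The Bcl2 and Resf1 calls held in all alternative analyses of this comparison.

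**Figure D5:**
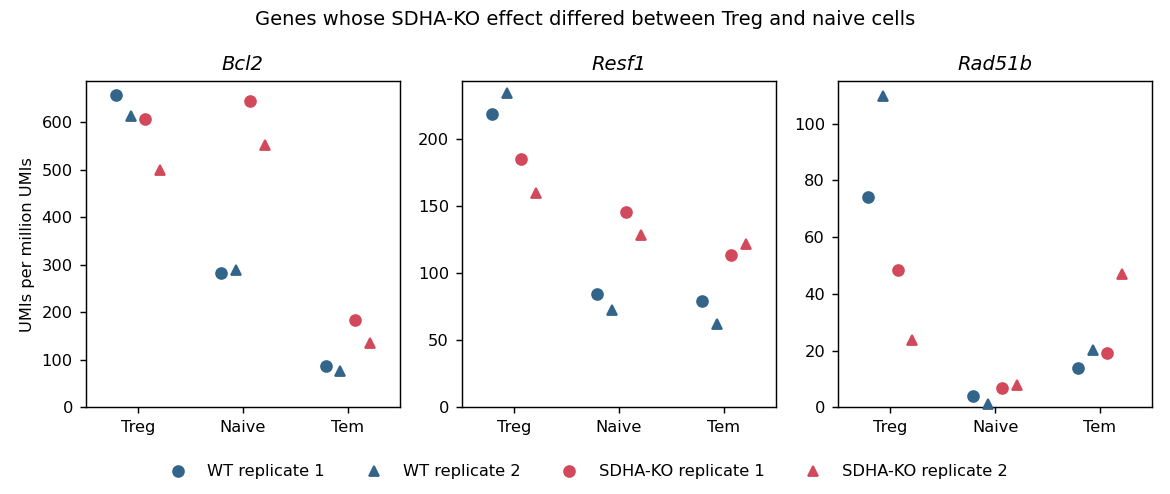
CPM of Bcl2, Resf1, and Rad51b in Treg, naive, and Tem CD4 cells, with 1 point per library. Bcl2 was higher in both SDHA-KO libraries in naive cells (644 and 552 CPM against 282 and 289) but not in Tregs (607 and 499 against 657 and 612).

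Genes that define Tregs were not called in this test. Nrp1 had a difference of −2.03 (adjusted p = 0.368), with naive levels near 2 CPM. Ikzf2 rose in naive cells (1.32, adjusted p = 0.00465), where it was at 8.21 and 5.45 CPM in WT, compared with 22.8 and 12.6 CPM in SDHA-KO, and the difference from Tregs was −1.30 (adjusted p = 0.114). Among cells annotated as naive, those with at least 2 Treg markers made up 1.06% and 1.63% in WT and 2.36% and 2.73% in SDHA-KO. Their part in the naive Ikzf2 and Il2ra values was not tested.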

How the data were processed

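Splenic T cells were profiled in 8 single-cell libraries, and the 4 unstimulated libraries were used for the comparisons. The authors aligned reads to mm10 with Cell Ranger (versions not given in the sources used here), removed unstimulated cells with more than 6000 detected genes, clustered the cells in Seurat 4.2.0, kept T cell clusters, and deposited raw UMI counts for 20170 genes together with a cell table. That table gives the authors' class and subset, counts of UMIs and genes per cell, the percentage of mitochondrial UMIs that the authors computed per cell, and a deposited log10 ratio of Cd4 to Cd8a with 0.0001 added, which was not used for tests. UMI totals and gene numbers recomputed from the counts differed from the table in 0 cells. No doublet caller was run.

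UMIs were summed per library and subset, since cells of 1 library are not replicates. Genes were kept by filterByExpr (minimum count 10, minimum total 15), scaled with TMM, and tested with glmQLFit and glmQLFTest of edgeR 4.0.16 in R 4.3.3, with Benjamini-Hochberg adjustment and a call at an adjusted p under 0.05. The common dispersion of the Treg fit corresponded to a spread of 8.49% between replicates. The chi-square per degree of freedom between replicates was 1.35 in WT and 1.86 in SDHA-KO, so no pair differed by less than counting noise. The interaction test used Treg and naive sums with the library as a block. CPM are UMIs scaled to a total of 1000000 over the summed cells, and equal depth means cells thinned to 3000 UMIs with a fixed seed. Tregs were compared with naive cells by a rule with no test (2-fold in each library, at least 50 CPM). Named genes were the called genes of at least 20 CPM on average with genotypes apart, the 10 largest fold changes in each direction, the 15 largest ratios against naive cells, Sdha and the 4 markers, called members of the gene lists and members of high level. A few further members were named after their values were seen: Tnfrsf4, Tnfrsf9, Id2, Maf, Cish, Pim1, Il10, Ebi3, Mki67, and Itgb1. The members and the gene lists were chosen with earlier results of these data known. Gene positions are from GENCODE vM21 (GRCm38, the same build as mm10). Scripts were tested on simulated counts. DESeq2 1.42.0 and limma 3.58.1 served as alternatives. Values per cell were computed with Python 3.11.15, numpy 2.4.6, scipy 1.17.1, and pandas 2.3.3.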

Additional observations from a re-analysis of the deposited data

Results flagged for a closer look

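The SDHA-KO effect differed between Tregs and naive CD4 cells for 3 genes by the edgeR interaction test. Bcl2, which inhibits apoptosis, differed by −1.22 on the log2 scale (Treg effect minus naive effect, adjusted p = 4.57e-06), because it was higher in SDHA-KO naive cells (1.01) and not in SDHA-KO Tregs (−0.21). Resf1, which acts in retroelement silencing, differed by −1.15 (adjusted p = 0.00233), with effects of 0.75 in naive cells and −0.40 in Tregs. Rad51b, a DNA repair gene, differed by −2.84 (adjusted p = 0.0455), with effects of 1.47 in naive cells and −1.35 in Tregs, and its naive level of 1.16 to 7.77 CPM rests on few UMIs.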

How the results depend on the processing

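The number of genes called between genotypes in Tregs (47) depended on the processing. It was 130 (79 higher and 51 lower) when every gene with a UMI was tested, 31 (9 and 22) with DESeq2, 79 with the replicate block, 31 in a joint fit with naive cells, 24 in Foxp3-positive Tregs, 15 after thinning to the smallest total, 29 without mitochondrially encoded genes, and 9 to 94 with 1 library left out. The 54 calls in Tregs without UMIs of other lineages and the 59 without the B cell-positive cells (an alternative chosen after seeing the data) were within 1.5 times. Same-numbered replicates did not deviate together (correlation −0.111 over 1307 genes), so the numbers are taken as names, and the replicate block gave 764 calls in naive cells against 386. The naive count was 63 after thinning to the Treg totals and 231 to 903 with 1 library left out. The interaction test gave 3 calls, and 9 to 51 with 1 library left out. Each fit without 1 library assumes that the lone library varies like the others. The Treg share differed by −2.29 percentage points, by −0.646 as a share of all T cells, by −0.273 for CD4 cells with a Foxp3 UMI, and by −3.28 to −1.31 with 1 library left out. Of the genes 2-fold from naive cells (156), 58 were 4-fold, and 304 passed at 20 CPM. The Ikzf2 fold change (0.01) was −0.0274 with limma, −0.0703 to 0.0747 with 1 library left out, −0.00581 in Tregs without UMIs of other lineages, and −0.00718 after thinning. Over the named genes, 345 alternative values kept their direction and their side of the threshold, 90 lost a call, and 5 reversed, while DESeq2 gave no adjusted p for 16 genes. The smallest Treg sum, 529470 UMIs, limits the precision of genes at low CPM.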

Other observations

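Foxp3 transcripts were scarce after stimulation, where the authors annotated no Treg. In stimulated CD4 cells Foxp3 was at 1.74 and 0.688 CPM in WT, compared with 2.38 and 2.49 CPM in SDHA-KO, against 15.8 to 19.7 CPM in unstimulated CD4 cells of all subsets. Foxp3 was detected in 12 and 10 WT cells and in 24 and 24 SDHA-KO cells. At 3000 UMIs per cell the share with Foxp3 was 0.415% to 0.709% in stimulated CD4 cells and 0% to 0.253% in stimulated CD8 cells. Fewer cells with Foxp3 and less Foxp3 RNA per cell cannot be told apart here.

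Among other gene groups in Tregs, 0 of 26 interferon-stimulated genes, 0 of 17 sterol and fatty acid synthesis genes, 0 of 8 integrated stress response genes, and 0 of 11 hypoxia-inducible genes were called between genotypes by edgeR. Their median log2 fold changes were 0.16, 0.23, 0.17, and 0.20, and 7, 1, 1, and 3 genes had an unadjusted p under 0.05. Of 14 homing receptors and 23 genes that respond to T cell receptor signals, 0 were called, with 5 and 2 genes at an unadjusted p under 0.05. Over all genes tested in Tregs, 0.706% were called and 10.1% had an unadjusted p under 0.05. Against naive cells, Gbp7 and Ly6e of the interferon-stimulated genes and Rel and Nfkbia of the receptor response genes were at least 2-fold higher in Tregs in each library.

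Ighm, the immunoglobulin heavy chain gene, was at 187, 349, 195, and 76.3 CPM in Tregs, in the order WT 1, WT 2, SDHA-KO 1, SDHA-KO 2. With all cells the genotypes overlapped and Ighm was not called by edgeR (log2 fold change −0.99, adjusted p = 0.103). Without the 5 B cell-positive cells of SDHA-KO replicate 1 that library was at 98.8 CPM and the log2 fold change was −1.61. Those cells were left out for their B cell UMIs and came from that library only. The lower value therefore follows in part from the choice of cells and is no test of Ighm. In naive CD4 cells Ighm was at 152 and 144 CPM in WT, compared with 89.0 and 92.4 CPM in SDHA-KO. This gene was chosen after its values were seen.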
